A study of Mus musculus with 4 samples.

Results

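The genes described here make, sense and export cholesterol, together with Ch25h and Cyp7b1, which make oxysterols or break them down. The list held 32 genes, of which 30 had at least 1 probe set annotated to that gene alone, and all 30 had at least 1 probe set bright enough to be measured. They had 62 probe sets, 51 of them bright enough, among 45101 probe sets and 11744 measured genes in all. Acat2 and Nr1h2 had no probe set with a single symbol and are not analysed here. The rule gives a measured reason for 1 gene: Ch25h was selected on its drop with oxozeaenol, so its difference between the oxozeaenol and TGF-beta2 arrays is given as a description that supports nothing.

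RNA came from primary mesenchymal cultures of the palate, the tissue that forms the roof of the mouth, prepared from mouse embryos of an outbred wild-type stock at embryonic day 14. There were 4 cultures with 1 Affymetrix 3′ array each. The first was untreated, the second received TGF-beta2 for 120 minutes, and the others received an inhibitor for 60 minutes and then TGF-beta2 for 120 minutes. SB431542 blocks the kinase of the type I TGF-beta receptor, whereas 5Z-7-oxozeaenol (oxozeaenol below) blocks the kinase Tak1. No culture received an inhibitor without TGF-beta2, and the labels state no inhibitor doses. There were no replicates, so each difference is between 2 single arrays, no test was possible, and precision is limited by having 4 arrays. Of 9 listed mesenchymal markers, 8 were above the brightness filter, with Col1a2, a collagen I chain, between 17662 and 20569. Macrophage markers were also present, with 12 of 12 measured, and 7 of 8 epithelial markers were measured. In such a mixed culture, fewer cells of a type and less RNA per cell cannot be told apart.

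Cholesterol is built from acetyl-CoA through mevalonate and farnesyl diphosphate, then through squalene, lanosterol and a series of sterols. The transcription factors SREBP-1 and SREBP-2, encoded by Srebf1 and Srebf2, switch on these enzymes when sterol is low. Scap escorts them to the Golgi for cleavage, and the Insig proteins hold them back in the endoplasmic reticulum when sterol or oxysterol is plentiful. Ch25h converts cholesterol to 25-hydroxycholesterol, an oxysterol that restrains SREBP processing, can activate the LXR nuclear receptors and guides immune cells after further hydroxylation by Cyp7b1. Ch25h is best known in macrophages, where interferon and Toll-like receptor signals induce it. In the developing palate, sterols matter because the Hedgehog pathway needs them: human defects of DHCR7 can include cleft palate, and mice that lack Sc5d have it.

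Promoters of 3 genes are shown because they span the contrast in the data: Hmgcs1 and Sc5d, enzyme genes with higher signals on the oxozeaenol array, and Ch25h, with a far lower one. Each window runs from 250 bases before to 50 after an annotated start, 5′ to 3′ on the gene's strand, from RefSeq on build GRCm38.p6. Hmgcs1 lies at chr13:119690101-119690400 (+), Sc5d at chr9:42264251-42264550 (-) and Ch25h at chr19:34475099-34475398 (-). Capitals mark any match, on either strand, to a sterol regulatory element (TCACCCCAC, or TCACNCCAC as a looser form that contains it), the NF-Y box CCAAT or the Sp1 box GGGCGG.
Hmgcs1: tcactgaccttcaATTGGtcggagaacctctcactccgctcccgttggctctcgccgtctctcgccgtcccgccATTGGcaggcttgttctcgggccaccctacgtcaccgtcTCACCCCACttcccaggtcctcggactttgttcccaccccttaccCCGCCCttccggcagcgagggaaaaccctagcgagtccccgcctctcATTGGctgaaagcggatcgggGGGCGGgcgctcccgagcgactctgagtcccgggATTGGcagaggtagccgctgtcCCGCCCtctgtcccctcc
Sc5d: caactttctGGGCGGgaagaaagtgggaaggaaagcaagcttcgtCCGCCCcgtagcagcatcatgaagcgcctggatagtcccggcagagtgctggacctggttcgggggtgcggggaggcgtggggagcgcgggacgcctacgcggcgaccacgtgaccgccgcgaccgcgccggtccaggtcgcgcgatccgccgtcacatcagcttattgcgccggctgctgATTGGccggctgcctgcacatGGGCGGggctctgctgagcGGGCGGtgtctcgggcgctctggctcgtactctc
Ch25h: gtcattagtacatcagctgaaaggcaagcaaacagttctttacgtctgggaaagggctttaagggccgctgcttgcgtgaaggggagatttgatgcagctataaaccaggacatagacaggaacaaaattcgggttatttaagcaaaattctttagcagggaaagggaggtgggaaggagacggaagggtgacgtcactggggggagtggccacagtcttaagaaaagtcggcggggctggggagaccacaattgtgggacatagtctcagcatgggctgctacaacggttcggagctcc

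The Hmgcs1 window held 1 strict sterol regulatory element, 4 NF-Y boxes and 3 Sp1 boxes, the Sc5d window 1 NF-Y box and 4 Sp1 boxes, and the Ch25h window none of the motifs. Of the 17 synthesis genes, 14 had windows in the table, and all 14 had an NF-Y box in at least 1 window, against 41.1% of all 27025 genes. An Sp1 box was present for 13 of the 14, against 38.2% of all genes. The strict sterol element was found for 1 of 14, Hmgcs1, against 0.614% of all genes, and the looser form for the same single gene against 1.44%. An exact repeat of AGGTCA with a spacer of 4 bases, a strict form of the LXR element, was found in none of the 25 listed genes with a window. It was found in 0.0148% of all genes. Looser forms were not searched for, so a window without the exact repeat may still hold an LXR element. These matches describe letters in short windows.

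Ch25h had the widest range of any listed gene. Its single probe set read 1309 on the untreated array, 2939 on the TGF-beta2 array, 2379 on the SB431542 array and 184 on the oxozeaenol array, where each inhibitor array also had TGF-beta2. The level was thus highest with TGF-beta2, nearly as high when the receptor kinase was inhibited, and lowest by far with the Tak1 inhibitor, under the untreated level. Signals have no unit beyond a common scaling of the arrays, and folds below were taken after adding a pseudocount of 21.7 to each signal, which understates folds of dim genes. On this scale Ch25h was 2.22-fold higher with TGF-beta2 than untreated, the rank 58 from the highest of 11744 genes. On the SB431542 array it was 1.23-fold under the TGF-beta2 level, and still 1.80-fold above untreated on that array, which the selection did not use. With oxozeaenol it was 14.4-fold lower than with TGF-beta2 alone (rank 9 from the lowest), 11.7-fold lower than with SB431542 (rank 3) and 6.46-fold lower than untreated (rank 16). The oxozeaenol array enters these 3 values, and a gene picked for a high reading with TGF-beta2 against oxozeaenol will tend to read high with TGF-beta2 against untreated too.

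**Figure D1:**
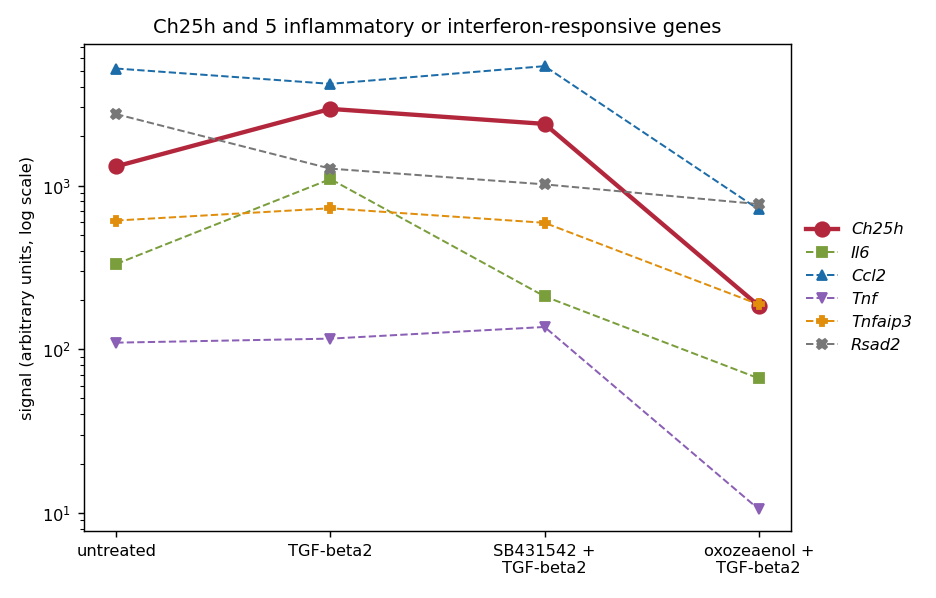
Signal (arbitrary units, log scale) of Ch25h and of 5 listed inflammatory or interferon-responsive genes on the 4 arrays, 1 array per point, with lines joining the points of a gene. Ch25h reads 1309, 2939, 2379 and 184 from left to right. Ccl2, Tnf, Tnfaip3, Il6 and Rsad2 are also lowest on the oxozeaenol array, and Rsad2 is highest on the untreated one. These 5 were picked from 13 measured genes of that kind. Of those not drawn, Ifit1, Mx1 and Cxcl10 are lowest with oxozeaenol. Ptgs2, Ifit3 and Irf7 are lowest with SB431542, Cxcl1 with TGF-beta2 alone and Nfkbia untreated.

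By a rule of at least 2-fold, Ch25h was the 1 listed gene of 30 past the rule in any comparison. With TGF-beta2 over untreated, 1 listed gene was higher and 0 lower, where 0.673% of all genes were higher and 0.366% lower. With SB431542 over TGF-beta2 alone, 0 were higher and 0 lower, against 0.613% and 1.18% of all genes. With oxozeaenol over TGF-beta2 alone, 0 were higher and 1, Ch25h, lower, against 1.82% and 2.17%, and this count follows from how Ch25h was chosen. With oxozeaenol over SB431542 the counts were 0 higher and 1 lower, against 1.51% and 1.30%. Over untreated, SB431542 gave 0 higher and 0 lower (0.468% and 0.383% of all genes), and oxozeaenol 0 higher and 1 lower (1.49% and 1.51%). Ch25h was again the 1 gene lower with oxozeaenol over SB431542 and over untreated. It was chosen on its drop with oxozeaenol, so these counts depend on that choice too. A count of 0 or 1 among 30 genes is near these background shares.

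Ch25h is known to respond to interferon and NF-kappaB signals, so 16 genes of that kind were set beside it, of which 13 were measured. With oxozeaenol over TGF-beta2 alone, 5 were at least 2-fold lower, 0 higher and 8 within 2-fold, where 2.17% of all genes were lower and 1.82% higher, with a median log2 difference of -0.56 against 0.05 for all genes. The list was chosen with earlier results of these data known, so nothing is read from that count or median. Ccl2, a monocyte chemokine, read 5185 (untreated), 4180 (TGF-beta2), 5362 (SB431542) and 714 (oxozeaenol). Tnfaip3, a brake on NF-kappaB, read 611, 726, 592 and 188 in the same order. Both were therefore low on the oxozeaenol array alone, as Ch25h was. Tnf, an inflammatory cytokine, read 110, 116, 137 and 10.5, and was also low on that array alone. Ptgs2, a prostaglandin synthesis gene, read 9842, 15586.5, 6571 and 6956. It was higher with TGF-beta2, as Ch25h was, but fell under the untreated level with SB431542 as well as with oxozeaenol. Cxcl1, a chemokine and the 1 gene of the 13 higher with oxozeaenol than with TGF-beta2 alone, read 432, 383, 540 and 509. Il6, an inflammatory cytokine, read 331, 1095, 210 and 66.3, so it was higher with TGF-beta2 like Ch25h but, unlike Ch25h, lower with SB431542 than untreated. Rsad2, an interferon-induced antiviral gene, read 2730, 1268, 1016 and 770, so it too was lowest with oxozeaenol, but the untreated array was highest, where Ch25h was lower than with TGF-beta2. Ifit1, Ifit3 and Mx1, also interferon-responsive, were highest untreated too. Ifit1 read 927, 489, 502 and 326, Ifit3 965, 460, 335 and 376, and Mx1 136, 67.4, 95.3 and 45.5. Ifit3 was lowest with SB431542, and Ifit1 and Mx1 with oxozeaenol. Nfkbia, the inhibitor of NF-kappaB, lay between 7999 and 9394 on all 4 arrays.

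The signals of the 12 macrophage markers summed to 59264 (untreated), 55975 (TGF-beta2), 57686 (SB431542) and 49974 (oxozeaenol). With oxozeaenol over TGF-beta2 alone, 11 of the 12 were lower by any amount, where 42.6% of all genes were, and 0 passed 2-fold, with a median log2 difference of -0.18 against 0.05 for all genes and a largest decrease of -0.73, for the lipopolysaccharide co-receptor gene Cd14. No macrophage marker was at 0, and the lowest reading was 157, for Cx3cr1 on the untreated array. With oxozeaenol the summed marker signal was lower, as Ch25h was, and with TGF-beta2 it was under the untreated sum, where Ch25h was higher. The part of macrophage RNA in the Ch25h differences was not tested.

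Cyp7b1, the hydroxylase that acts on 25-hydroxycholesterol, read 387, 382, 421 and 434 on the untreated, TGF-beta2, SB431542 and oxozeaenol arrays. Its largest log2 difference was 0.18, with oxozeaenol over TGF-beta2 alone, and its other kept probe set gave the same value. It was thus nearly level on the 4 arrays. Of 14 other LXR targets and oxysterol genes, 10 were measured and none was 2-fold apart in any comparison. Cyp39a1, another oxysterol hydroxylase, read 67.9, 65.3, 70.5 and 139 in the same order, so the oxozeaenol array was the high one, at a log2 difference of 0.89 from TGF-beta2 alone, and the other 3 signals lay near the filter level of 66.1. Pltp, which transfers phospholipids between lipoproteins, read 396, 292, 231 and 394, lowest with SB431542, at -0.73 from untreated. Apoc1, an apolipoprotein, read 127, 116, 145 and 84.8. Gpr183, the receptor for the oxysterol that Cyp7b1 produces, read between 82.6 and 109. These 4 genes were singled out after their values were seen, the first 3 being those of the 10 at least 1.5-fold apart in any comparison.

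The LXR branch showed small and mixed differences. Nr1h3, which encodes LXR-alpha, read 63.5 (untreated), 76.8 (TGF-beta2), 101 (SB431542) and 48.4 (oxozeaenol). These signals lie around the filter level of 66.1, and Nr1h3 had no other probe set. It passed the filter through its SB431542 reading, since the mean of the other arrays lies at 62.1. The log2 difference of oxozeaenol from SB431542 was -0.81, and -0.53, under 1.5-fold, with the pseudocount at the median signal. Nr1h3 and Ch25h were the listed genes at least 1.5-fold lower in this comparison, where 4.44% of all genes were, and because of the filter and of how Ch25h was chosen nothing is read from that count. Abca1, the pump that loads cholesterol onto apolipoprotein A-I, read 5680, 5739, 5037 and 4668 in the order above, with the lowest value on the oxozeaenol array at a log2 difference of -0.30 from TGF-beta2 alone. Abcg1, which exports cholesterol to lipoprotein particles, went the other way on that array, from 483 with TGF-beta2 to 614 with oxozeaenol (0.33). Mylip, the ligase that marks the LDL receptor for breakdown, differed by at most 0.22 in any comparison. The 3 LXR targets thus had their highest signals on 3 different arrays.

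The mevalonate branch was slightly lower with TGF-beta2 and slightly higher with oxozeaenol. Hmgcs1, the synthase that precedes mevalonate, read 6555 (untreated), 5616 (TGF-beta2), 5306 (SB431542) and 7151 (oxozeaenol), the highest on the oxozeaenol array. Its 4 kept probe sets were all lower with TGF-beta2 than untreated, by -0.24 to -0.04, and all higher with oxozeaenol than with SB431542, by 0.43 to 0.76. Mvk, mevalonate kinase, read 241, 185, 247 and 252 in that order, so the TGF-beta2 array was the low one and the other arrays lay together. Its other kept probe set read 83.6, 68.2, 142 and 162, again lowest with TGF-beta2 alone, but there the inhibitor arrays lay above the untreated one, by 0.63 and 0.80. Pmvk, the next kinase, read 333, 273, 325 and 304, again lowest with TGF-beta2 alone. Fdps, farnesyl diphosphate synthase, read 1423, 1180, 1515 and 1783. It was the 1 synthesis gene at least 1.5-fold higher with oxozeaenol than with TGF-beta2 alone (log2 0.59), and 1 of 30 listed genes, against 7.02% of all genes. The value lies at the limit of 1.5-fold and fell under it when the pseudocount was the median signal (0.57), under median centring (0.51) and under quantile normalization (0.5844).

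Mvd, mevalonate diphosphate decarboxylase, was the exception in the branch, and its probe sets disagreed. The brighter one read 184, 266, 235 and 295, which is 0.49 higher with TGF-beta2, and the other read 251, 187, 232 and 272, which is -0.39. Both were highest with oxozeaenol. Idi1, the isomerase, was singled out after its values were seen, because both of its probe sets were low on both the TGF-beta2 and SB431542 arrays. The brighter read 1472, 1119, 1000 and 1382, so Idi1 was near its untreated level with oxozeaenol but not with SB431542. Over all 6 genes the median log2 difference was -0.27 with TGF-beta2 over untreated, against -0.03 for all measured genes. With oxozeaenol over TGF-beta2 alone it was 0.32 against 0.05, and all 6 were higher, where 57.4% of all genes were.

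In the sterol branch, Fdft1, squalene synthase, read 1126, 1017, 948 and 1362 on the untreated, TGF-beta2, SB431542 and oxozeaenol arrays. Its 2 kept probe sets were both higher with oxozeaenol than with SB431542, by 0.51 and 0.73. Sqle, squalene epoxidase and a control point of the branch, read 2623, 2441, 2555 and 2316, all within 0.18 of each other on the log2 scale, and was lowest with oxozeaenol. Lss, lanosterol synthase, read 345, 297, 313 and 342, a range of 0.20. The first committed enzymes thus did not move as a block, since Fdft1 was highest and Sqle lowest on the same array.

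The later enzymes were singled out after their values were seen. Sc5d, which inserts a double bond into the sterol ring, read 852, 723, 799 and 1051, and its 3 kept probe sets were higher with oxozeaenol than with TGF-beta2 alone by 0.39 to 0.83. Dhcr7, the last reductase, read 461, 317, 320 and 377. It had the largest decrease of the 17 synthesis genes with TGF-beta2 (-0.51), stayed at that level with SB431542 and lay in between with oxozeaenol. Cyp51, lanosterol demethylase, read 1220, 1367, 1063 and 1310, with SB431542 lowest in all 3 of its probe sets. Hsd17b7, a ketoreductase, was highest with SB431542, at 662 against 502 untreated, but its 3 kept probe sets fell on both sides of 0 with TGF-beta2. For Tm7sf2, Msmo1, Nsdhl and Ebp, enzymes of demethylation and double-bond shifts, all differences lay between -0.28 and 0.34.

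**Figure D2:**
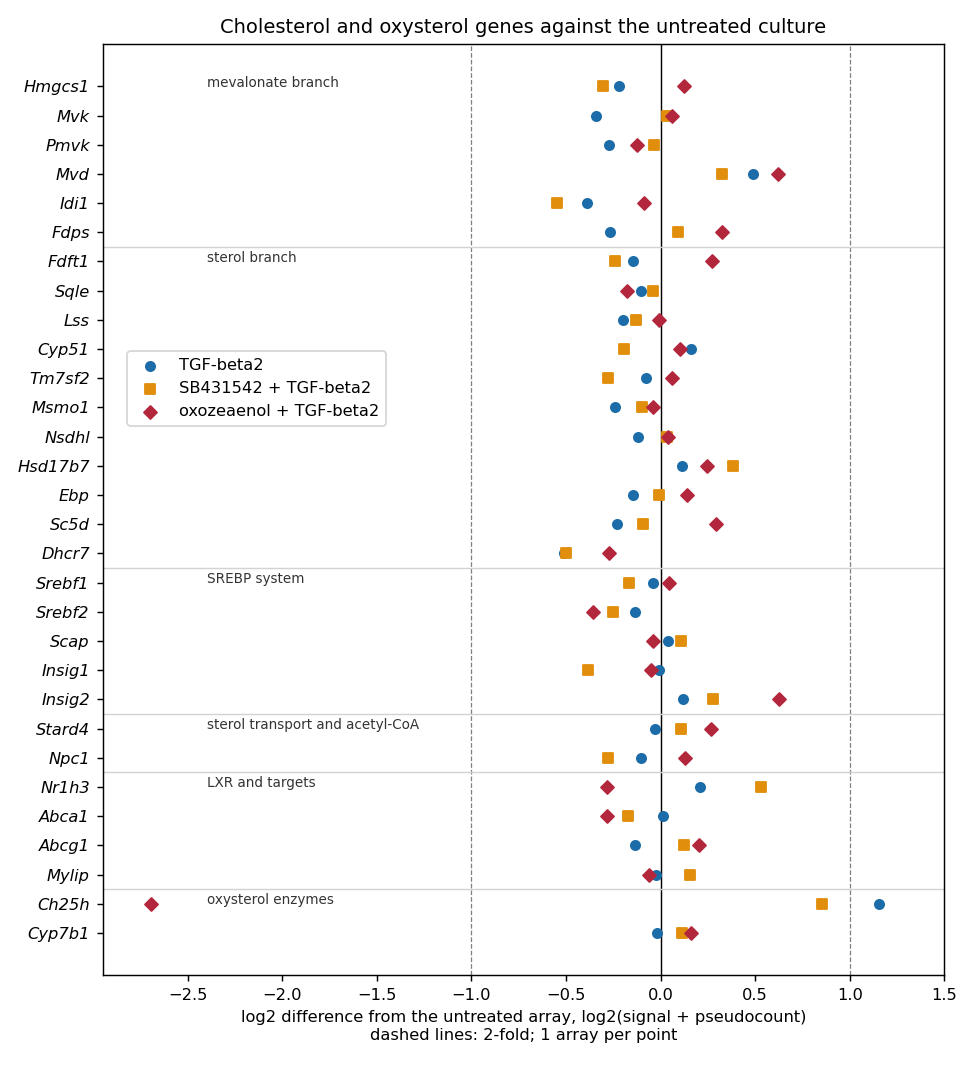
Log2 difference from the untreated array for each of the 30 measured genes, grouped by role, on the TGF-beta2, SB431542 and oxozeaenol arrays; each point is 1 array and dashed lines mark 2-fold. Ch25h alone lies beyond 2-fold, at 1.15 with TGF-beta2 and -2.69 with oxozeaenol, and every other gene lies between -0.55 and 0.62.

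The 17 synthesis genes of both branches were next read as a group. With TGF-beta2 over untreated, 14 of 17 were lower, by any amount, where 56.0% of all genes were lower, and the median log2 difference was -0.20 against -0.03 for all genes. With oxozeaenol over TGF-beta2 alone, 15 of 17 were higher against 57.4% of all genes, with a median of 0.20 against 0.05. These comparisons share the TGF-beta2 array. With oxozeaenol over SB431542, which does not use that array, 14 of 17 were higher against 53.1% of all genes, with a median of 0.22 against 0.02. With SB431542 over TGF-beta2 alone, 11 of 17 were higher against 55.2% of all genes, with a median of 0.07 against 0.03. Against untreated, 12 of 17 were lower with SB431542 (51.0% of all genes, median -0.09) and 11 of 17 were higher with oxozeaenol (53.3%, median 0.06). So the enzymes lay near their untreated levels with oxozeaenol and a little under them with TGF-beta2 alone. With quantile normalization the medians were -0.18 for TGF-beta2 over untreated and 0.15 for oxozeaenol over TGF-beta2 alone.

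Of the 17 genes, 9 were lowest on the TGF-beta2 array, where 30.7% of all genes were lowest, and 9 were highest on the oxozeaenol array, where 34.8% of all genes were highest. Both held for 5 genes. The untreated array was the highest for 6 genes and the lowest for 2. The shares of all genes with these orders were not counted, so nothing is read from the counts of 5, 6 and 2. Pathway neighbours share regulators and arrays, so the 17 genes are not independent readings. On the oxozeaenol array the signals of 7 epithelial markers summed to 5723, against 1910 untreated, 1793 with TGF-beta2 and 1859 with SB431542. The keratin genes Krt14 (141 untreated, 2218 with oxozeaenol) and Krt5 (195 and 1383) rose the most. Against untreated, 6 of the 7 were higher with oxozeaenol, where 53.3% of all genes were, and Epcam was level at 369 and 366. Krt19, among the 6, read 81.0 (untreated), 34.7 (TGF-beta2), 73.3 (SB431542) and 209 (oxozeaenol). It passed the filter level of 66.1 through its oxozeaenol reading, so nothing is read from the count of 6. The part of these epithelial transcripts in the higher enzyme signals was not tested.

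**Figure D3:**
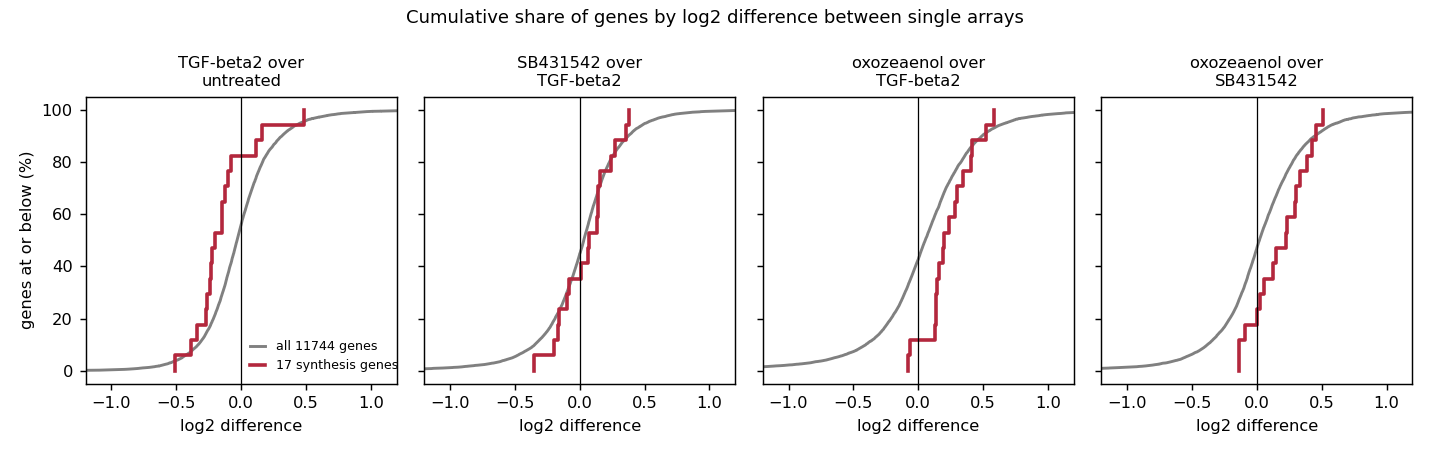
Cumulative percentage of genes at or below each log2 difference in 4 comparisons of single arrays, for all 11744 genes (grey) and the 17 synthesis genes (red). The red line lies left of the grey over most of its course with TGF-beta2 over untreated (medians -0.20 and -0.03) and right of it with oxozeaenol over SB431542 (0.22 and 0.02), and the lines run together with SB431542 over TGF-beta2 alone.

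Of the 9 synthesis genes with at least 2 kept probe sets, all probe sets lay on the same side of 0 in 4 genes with TGF-beta2 over untreated, and in 8 genes with oxozeaenol over SB431542 and with oxozeaenol over TGF-beta2 alone. Cyp51 was among the 8 genes with oxozeaenol over TGF-beta2 alone, with all 3 of its probe sets below 0. Over all 31 kept probe sets of the 17 genes, 24 were lower with TGF-beta2 than untreated, 26 were higher with oxozeaenol than with TGF-beta2 alone and 27 were higher with oxozeaenol than with SB431542. Counted by gene, 56.0%, 57.4% and 53.1% of all genes lay on those sides. Within these genes, the difference between the inhibitors was therefore shared more widely among probe sets of the same gene than the difference with TGF-beta2. Matching counts over the probe sets of all genes were not taken, so this is not read as a trait of the synthesis genes.

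**Figure D4:**
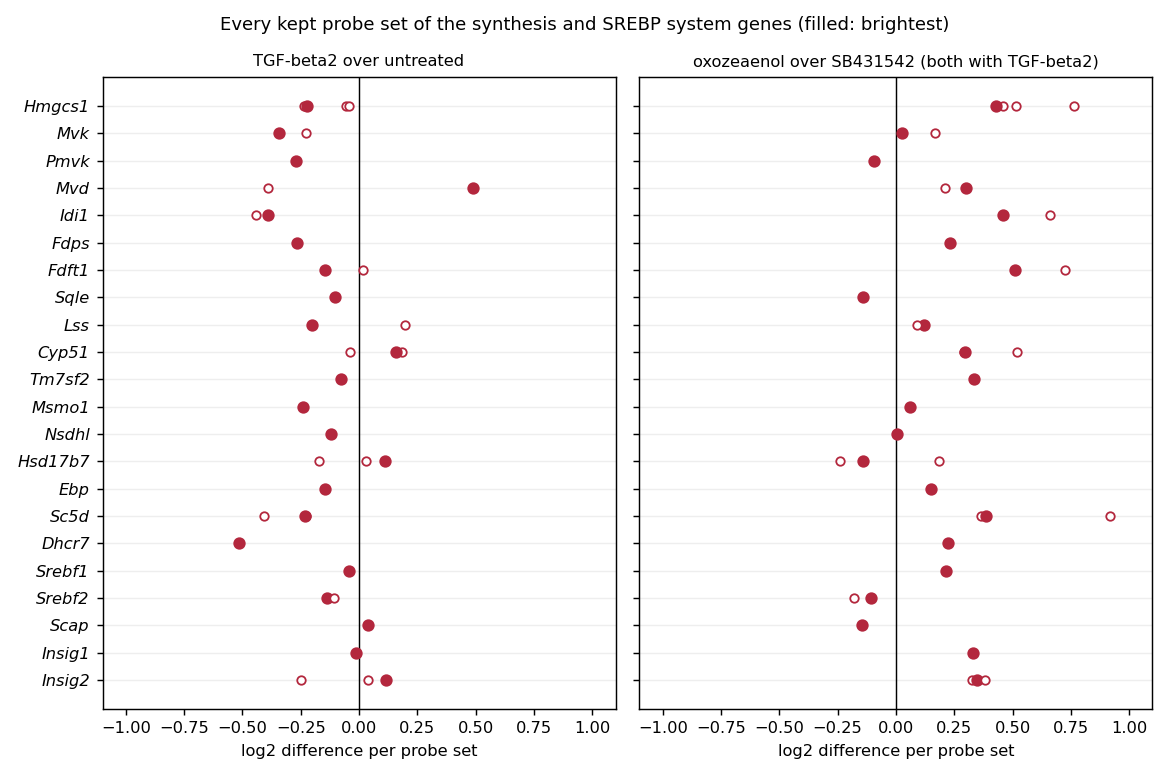
Log2 difference of every kept probe set of the synthesis and SREBP system genes with TGF-beta2 over untreated (left) and with oxozeaenol over SB431542 (right); filled points are the brightest probe set of a gene and open points its others. On the left the probe sets of Mvd lie at 0.49 and -0.39, and on the right all 4 of Hmgcs1 lie between 0.43 and 0.76.

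In the SREBP system, Insig2 had the widest differences. Srebf1 read 1375, 1334, 1221 and 1419 on the untreated, TGF-beta2, SB431542 and oxozeaenol arrays, a range of 0.21 on the log2 scale. Srebf2, whose product drives most cholesterol enzymes, read 639, 578, 533 and 493, lowest with oxozeaenol. On that array 9 of the 17 synthesis genes were highest. The other kept probe set of Srebf2 read 456, 422, 516 and 454. It was lowest with TGF-beta2 alone, and 0.10 higher with oxozeaenol than there. Scap, the escort, read 1490, 1530, 1605 and 1449. Insig1, itself an SREBP target, was singled out after its values were seen, at 1127, 1118, 860 and 1087. It was low on the SB431542 array, as Cyp51 was.

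Insig2, the retention protein that does not depend on SREBP, read 635, 690, 773 and 989, with oxozeaenol highest. Its 3 kept probe sets were higher with oxozeaenol than with TGF-beta2 alone by 0.31 to 0.72 and higher than with SB431542 by 0.32 to 0.38. Against untreated, Insig2 (0.62) and Mvd (0.62) were the 2 listed genes of 30 at least 1.5-fold higher with oxozeaenol, where 5.94% of all genes were. The value for Mvd rests on 1 probe set, since the other gave 0.11, and it fell under 1.5-fold when the pseudocount was the median (0.52), under median centring (0.57) and under quantile normalization (0.54). Insig2 was under 1.5-fold with median centring (0.57) and with the mean of its probe sets (0.48). With SB431542 over untreated that count was 1, Ch25h, where 2.96% of all genes were. Stard4, which carries sterol between membranes, read 633, 621, 683 and 767, and Npc1, which releases cholesterol from lysosomes, 820, 762, 672 and 897. Both were highest with oxozeaenol, with all 3 probe sets of Stard4 higher than with either TGF-beta2 alone or SB431542.

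Other genes of the pathway were read from lists that leave out the genes above. Of 18 further genes of sterol synthesis, uptake and storage, 12 were measured, none was 2-fold apart, and 6 were higher and 6 lower with oxozeaenol than with TGF-beta2 alone (median 0.04, against 0.05 for all genes). Of 14 fatty acid genes driven by SREBP, 13 were measured, none was 2-fold apart, and 9 were higher in that comparison, 69.2% against 57.4% of all genes (median 0.19 against 0.05). Lpin1, a phosphatidate phosphatase, stood out in this list with 177, 168, 206 and 342 on the 4 arrays in the same order. Fasn, fatty acid synthase, read 1742, 1744, 1759 and 1319, lowest with oxozeaenol. Of 9 genes of isoprenoid side branches, 8 were measured with a median of 0.03, and Fntb, a farnesyltransferase subunit, read 113, 200, 328 and 203, at least 2-fold higher with SB431542 than untreated.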

How the data were processed

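The deposited values are array signal intensities on a linear scale, 1 per probe set and culture. The labels' protocols give 500 ng of total RNA per array, and the submitters' processing notes name GCOS, the Affymetrix array software, without settings. The mean of the deposited intensities, leaving out 2% of probe sets at each end, was 500.0 on all 4 arrays, which shows a common scaling by the authors. From them, 64 control probe sets were left out. Of the other 45037, the platform annotation gave 1 symbol for 34945, several for 932 and none for 9160. Signals were converted to log2(value + 21.7), the pseudocount being the 25th percentile. Probe sets with a mean at or above the median (a signal of 66.1) were kept, and the brightest stood for its gene. All 6 pairs of arrays were compared by size alone, at 2-fold and 1.5-fold. Named members were those at least 1.5-fold apart in any comparison and the first of each role group in pathway order. Other listed genes, apart from markers, were named when at least 2-fold apart. Markers are given mainly by count, sum and range. Nfkbia, Cxcl1, Lpin1 and Fasn fall outside this rule, and further exceptions are marked in the text. The members and lists were chosen with earlier results of these data known. Counting was tested on simulated data. Promoter windows came from RefSeq (GRCm38.p6) for 25 of 32 genes. Python 3.11.15, numpy 2.4.6 and pandas 2.3.3 were used.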

Additional observations from a re-analysis of the deposited data

How the results depend on the processing

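Alternatives changed the pseudocount (10th percentile or median), the filter (none, or the 75th percentile), the scaling (median centring or quantile normalization), the fold rule and the choice of probe set. Ch25h kept its direction in every comparison under each of them, with log2 differences of -3.95 to -3.57 for oxozeaenol over TGF-beta2 alone and 1.13 to 1.17 for TGF-beta2 over untreated. Counts of listed genes past 2-fold changed under the 1.5-fold rule alone, to 1 higher with oxozeaenol over TGF-beta2, 2 lower with oxozeaenol over SB431542, 1 higher with SB431542 over untreated and 2 higher with oxozeaenol over untreated. At 1.5-fold, the calls for Fdps, Insig2, Mvd and Nr1h3 were each lost under at least 1 alternative, and those for Ch25h under none. The median of the synthesis genes kept its sign in all 6 comparisons, but for oxozeaenol over untreated (0.06) it came near 0 with median centring (0.0080) and quantile normalization (0.0106) and was 0.12 with the mean of the probe sets, and for SB431542 over untreated (-0.09) it was -0.04 with either of the last 2 settings. Under the stricter filter, which left 11 of the 17 genes, it was -0.15 for TGF-beta2 over untreated, 0.14 for SB431542 over TGF-beta2, 0.29 for oxozeaenol over TGF-beta2 and 0.13 for oxozeaenol over untreated; with fewer genes, those above 0 numbered 7 for SB431542 over TGF-beta2, 9 for oxozeaenol over TGF-beta2, 9 for oxozeaenol over SB431542 and 3 for SB431542 over untreated. With median centring the median was 0.13 for oxozeaenol over TGF-beta2 and 0.15 for oxozeaenol over SB431542, and with quantile normalization 0.15 and 0.14; the cause was not tested. With the mean of the probe sets it was -0.14 for TGF-beta2 over untreated. Without probe sets shared between transcripts, an alternative chosen after seeing the data, it was 0.14 for SB431542 over TGF-beta2 and 0.29 for oxozeaenol over TGF-beta2. Of 1392 single-gene values, 37 changed sign, none of them at least 1.5-fold in the comparison concerned. The counts of all genes past the rule moved far more, from 64 to 824 higher and 149 to 681 lower with oxozeaenol over TGF-beta2 (214 and 255 as reported), and from 30 to 354 and 17 to 289 with TGF-beta2 over untreated (79 and 43). No paired analysis was possible because each treatment has 1 array.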
